A study of Mus musculus with 19 samples.

Results

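The genes described here are 10 known targets of Wnt signaling in the hepatocytes that surround the central vein of the liver lobule, namely Axin2, Rnf43, Znrf3, Lgr5, Tbx3, Glul, Slc1a2, Rhbg, Oat and Lect2. They were taken by name as known targets, with earlier results of these data known, and they are 10 of the 51826 gene entries that were measured. All 10 were among the 16230 entries that were tested, those whose mean reached 0.1 TPM, a level per transcript that is corrected for gene length and adds up to the same total in each mouse. Liver RNA was sequenced from female Balb/c mice, labelled as 12 weeks of age, in 3 reproductive stages, with 7 nulliparous mice, 6 mice at lactation day 10 and 6 mice at involution day 6, which is 6 days after the pups were weaned. The mice carried no transgene and received no agent that the labels name, each mouse gave 1 library, and the study's methods name Charles River Laboratories and The Jackson Laboratory as suppliers without saying which mouse came from which. The study asked how the liver grows in pregnancy and lactation and shrinks again after weaning. RNA was taken from frozen liver, given in the methods as the caudate lobe under tissue collection and as whole liver under sequencing. Every value is thus a mean over all hepatocytes and other cells of the tissue used. Fewer cells of a type cannot be told apart from less RNA per cell.

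In canonical Wnt signaling a Wnt ligand binds a Frizzled receptor and an Lrp co-receptor, the complex that degrades β-catenin is switched off, and β-catenin enters the nucleus and works with TCF and LEF factors on target genes. In the liver the endothelium of the central vein supplies Wnt2, Wnt9b and the amplifier Rspo3, so the pathway is most active in the hepatocytes next to that vein. These pericentral cells take up ammonia and make glutamine from it, and they carry much of the cytochrome P450 metabolism, whereas periportal hepatocytes make urea and glucose. Several targets act on the pathway itself: Axin2 is a scaffold of the degradation complex, Rnf43 and Znrf3 are ubiquitin ligases that remove Frizzled receptors from the cell surface, and Lgr5 is a receptor for R-spondins. Tbx3 is a transcription factor, Glul is glutamine synthetase, Slc1a2 is a glutamate transporter, Rhbg is an ammonium transporter, Oat is ornithine aminotransferase and Lect2 is a protein that hepatocytes secrete.

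Promoter windows that run from 250 bases before to 50 bases after a transcription start were read from RefSeq on GRCm38.p6 and matched 6 of the 10 genes, with 7 windows because Rnf43 has 2. Lgr5, Tbx3, Znrf3 and Rhbg were not among them. The letters CTTTGAT and CTTTGTT, core forms of the TCF/LEF motif that differ in 1 letter and so cannot match at the same place on a strand, were searched on both strands. Of the 7 windows, 2 held a match, those of Lect2 and Slc1a2, against 9.33% of all 32851 windows of the same length. Both matches were CTTTGAT on the strand opposite to the gene, which 3.73% of all windows held, while CTTTGTT was found in 5.85%. In Lect2 the match began 32 bases before the start, and in Slc1a2 207 bases before it. A match is a description of the letters and not a site of binding. The windows of 4 genes are shown, Axin2 and Lect2 because their levels were lower in lactation, and Slc1a2 and Oat because their levels separated mice of the same stage. Capitals mark the match, and every window is written 5′ to 3′ on the strand of its gene. They lie at chr11:108920099-108920398 on the plus strand for Axin2, chr13:56548489-56548788 on the minus strand for Lect2, chr2:102706188-102706487 on the plus strand for Slc1a2, where the start used by RefSeq lies inside the longer gene of the GENCODE annotation, and chr7:132576349-132576648 on the minus strand for Oat.
Axin2 promoter: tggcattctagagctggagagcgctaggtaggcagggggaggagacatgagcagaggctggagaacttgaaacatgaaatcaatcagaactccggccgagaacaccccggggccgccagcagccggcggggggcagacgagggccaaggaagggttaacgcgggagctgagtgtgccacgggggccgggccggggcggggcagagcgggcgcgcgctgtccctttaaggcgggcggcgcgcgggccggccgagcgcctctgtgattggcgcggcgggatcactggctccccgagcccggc
Lect2 promoter: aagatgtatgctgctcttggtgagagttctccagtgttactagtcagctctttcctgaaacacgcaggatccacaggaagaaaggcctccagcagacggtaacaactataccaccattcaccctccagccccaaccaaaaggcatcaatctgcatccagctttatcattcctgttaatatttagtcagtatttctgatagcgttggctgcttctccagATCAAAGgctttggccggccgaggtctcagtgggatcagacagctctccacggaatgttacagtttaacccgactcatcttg
Slc1a2 promoter: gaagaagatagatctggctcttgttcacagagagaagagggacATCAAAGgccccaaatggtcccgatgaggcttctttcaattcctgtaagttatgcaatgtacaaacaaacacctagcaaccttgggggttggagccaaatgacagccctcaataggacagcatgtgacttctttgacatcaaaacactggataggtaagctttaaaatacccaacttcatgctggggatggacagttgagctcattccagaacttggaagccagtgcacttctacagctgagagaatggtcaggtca
Oat promoter: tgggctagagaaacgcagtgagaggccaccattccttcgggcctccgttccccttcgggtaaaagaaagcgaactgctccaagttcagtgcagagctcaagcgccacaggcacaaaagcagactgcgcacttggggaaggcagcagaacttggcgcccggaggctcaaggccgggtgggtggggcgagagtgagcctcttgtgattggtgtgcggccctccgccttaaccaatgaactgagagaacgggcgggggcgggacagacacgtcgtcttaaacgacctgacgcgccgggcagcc

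The mice separated by animal number within the same stage, and this bears on 5 of the 10 members' values. Numbers in the sample titles were either under 200, in 3 nulliparous and 3 lactating mice, or 200 and above, in 4 nulliparous, 3 lactating and all 6 involution mice, and the labels name no batch. The first principal component of all tested genes held 34.5% of the variance and ran from 30.4 to 39.7 in the lower-numbered mice and from -28.6 to -4.06 in the others. Every involution mouse thus has a number of 200 and above, and the involution comparisons of the members were also fitted within the higher numbers. Where lactation is given by range, the values come from 1 fit of the 13 nulliparous and lactating mice with an effect for each range, unless a fit of 1 range alone is named. The share of all TPM that went to albumin was 4.25 to 6.70% in nulliparous mice, 8.11 to 12.7% in lactation and 5.53 to 8.26% in involution, and as TPM sum to a fixed total, every other share depends on it. No 2 of the 171 pairs of mice had identical values. Sequencing depth is unknown, because TPM do not keep it, and precision is known here from the spread between mice.

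In lactation, 4 of the 10 members were lower than in nulliparous mice and 0 were higher. Lect2 fell most, and Axin2, Lgr5 and Rnf43 fell with it (limma, adjusted p under 0.05 over all genes). Over all genes 9.21% passed the same test and 6.49% passed it as lower. The median difference of the members was -0.47 on the log2(TPM + 1) scale, beside -0.03 over all genes. With the added demand of a change of at least 1 on the log2(TPM + 1) scale, Lect2 alone remained, against 0.746% of all genes. That demand depends on the added 1, since with a pseudocount of 0.1 the differences were -1.22 for Axin2 and -1.42 for Lgr5. The levels of Axin2, Lgr5 and Lect2 did not overlap between the 2 stages, each lying lower in every lactating mouse, which was so for 2.29% of all genes.

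**Figure D1:**
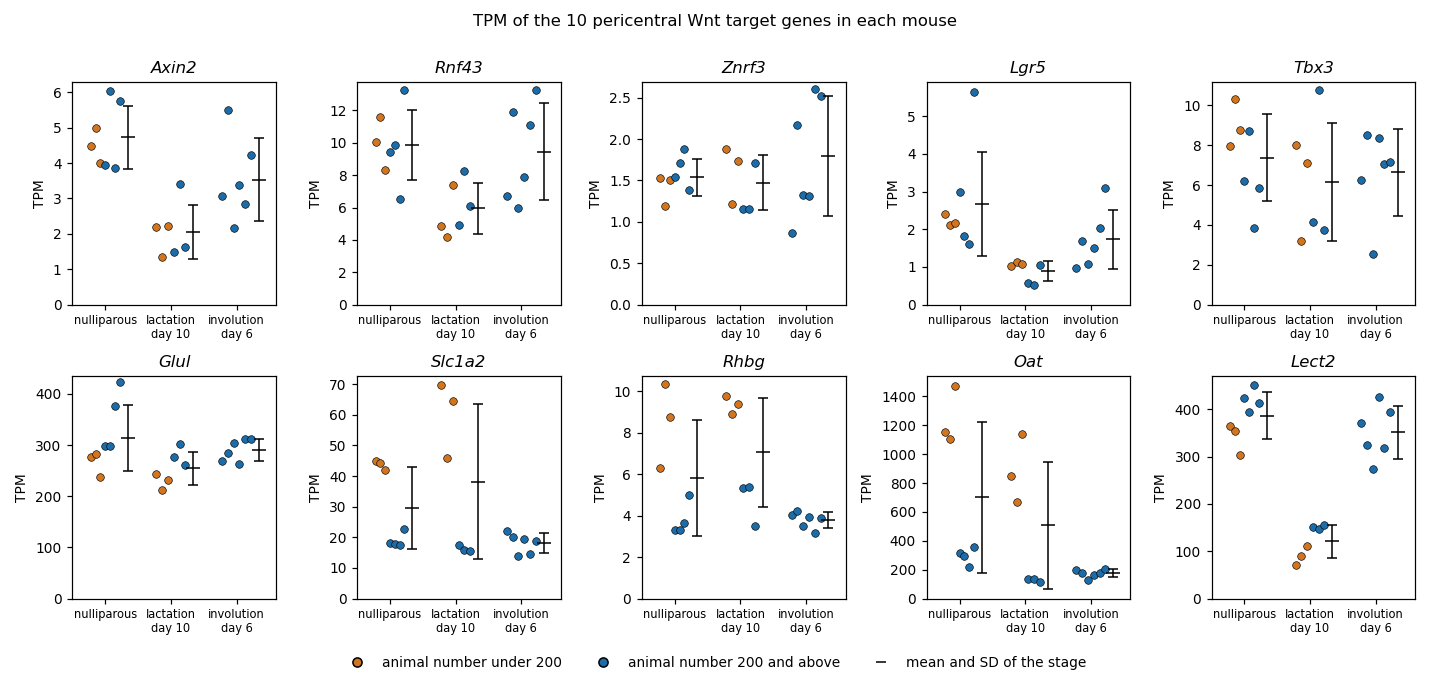
TPM (vertical axis, from 0) of each of the 10 genes in each mouse, by stage; orange points are mice numbered under 200, blue points mice numbered 200 and above, and the bar is the mean with its SD. Lect2 lies between 71.7 and 155 TPM in lactation and above 270 TPM elsewhere, and the points of Slc1a2, Rhbg and Oat divide by color within the nulliparous and the lactation groups.

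Among the genes that restrain or amplify the pathway, Axin2 changed most clearly. Axin2 (ENSMUSG00000000142, GRCm38 chr11:108920349-108950783, plus strand) had a lowest, median and highest level of 3.86, 4.49 and 6.05 TPM in nulliparous mice, of 1.35, 1.91 and 3.40 TPM in lactation and of 2.16, 3.23 and 5.49 TPM in involution. The highest lactating mouse was below the lowest nulliparous mouse, whereas the involution mice reached across both. Mean levels were 4.73 ± 0.902 TPM (SD, n = 7) in nulliparous mice and 2.05 ± 0.757 TPM (SD, n = 6) in lactation, a 2.31-fold lower level. On the log2(TPM + 1) scale Axin2 fell by 0.93 (SE 0.164, limma adjusted p = 0.0014). From lactation to involution Axin2 rose by 0.57 (SE 0.170, limma adjusted p = 0.0217), to 3.53 ± 1.18 TPM (SD, n = 6), a call that was lost with animal number range as a covariate (limma adjusted p = 0.0676). The fall held within each range of animal numbers, at -0.92 under 200 (limma adjusted p = 0.0271) and at -0.93 at 200 and above (limma adjusted p = 0.0217).

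Rnf43 (ENSMUSG00000034177, chr11:87662722-87735539, plus strand) had a lowest, median and highest level of 6.55, 9.89 and 13.3 TPM in nulliparous mice, of 4.18, 5.53 and 8.23 TPM in lactation and of 5.95, 9.495 and 13.2 TPM in involution. The groups overlapped in all 3 comparisons. Rnf43 fell by 0.65 in lactation (SE 0.184, limma adjusted p = 0.0313), from 9.87 ± 2.17 (SD, n = 7) to 5.95 ± 1.58 TPM (SD, n = 6), and rose by 0.57 in involution (SE 0.191, limma adjusted p = 0.0381). The rise was not called with animal number range as a covariate (limma adjusted p = 0.0986) or within the higher numbers. The fall did not pass within either range of animal numbers, with limma adjusted p = 0.0631 under 200 and 0.199 at 200 and above, or without any 1 of 7 of the mice (NUL_1, NUL_13, NUL_221, NUL_227, LAC_102, LAC_133 and LAC_200, limma adjusted p from 0.0515 to 0.073). Its relative Znrf3 (ENSMUSG00000041961, chr11:5276324-5444847, minus strand), which acts on the same receptors, had means of 1.54 ± 0.220, 1.47 ± 0.335 and 1.80 ± 0.728 TPM (SD, n = 7, 6 and 6) in the 3 stages, and its difference between lactation and nulliparous mice was -0.04 (95% interval -0.33 to 0.25). The transcript 1110028F11Rik lies within Rnf43 on the same strand, at a mean of 2.48 TPM, so reads from these 2 genes may not be fully separable.

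Lgr5 (ENSMUSG00000020140, chr10:115450311-115587780, minus strand) was the receptor among the members and had a lowest, median and highest level of 1.61, 2.17 and 5.65 TPM in nulliparous mice, of 0.530, 1.04 and 1.12 TPM in lactation and of 0.980, 1.595 and 3.09 TPM in involution. Every lactating mouse lay below every nulliparous mouse, and the involution mice overlapped with both groups. Lgr5 fell from 2.68 ± 1.38 (SD, n = 7) to 0.895 ± 0.269 TPM (SD, n = 6), 2.996-fold in TPM and by 0.90 on the log2(TPM + 1) scale (SE 0.194, limma adjusted p = 0.00609), a scale that understates changes of genes at such low levels. Its difference from lactation to involution was 0.49 (limma adjusted p = 0.0848). By range of animal numbers the difference in lactation was -0.64 under 200 (limma adjusted p = 0.165) and -1.14 at 200 and above (limma adjusted p = 0.0198), and the test of the difference between these 2 values gave an adjusted p of 0.573. In a fit of the 6 mice numbered under 200 alone the same difference of -0.64 had a limma adjusted p of 0.0283, so the call under 200 depended on the fit.

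Tbx3 (ENSMUSG00000018604, chr5:119670669-119684724, plus strand) varied more among mice of a stage than between stages. Its lowest, median and highest levels were 3.86, 7.94 and 10.3 TPM in nulliparous mice, 3.17, 5.62 and 10.8 TPM in lactation and 2.55, 7.11 and 8.52 TPM in involution, and the 3 groups overlapped. The difference between lactation and nulliparous mice was -0.28 (95% interval -0.84 to 0.27). Tbx3os1 overlaps its start on the other strand, at a mean of 1.504 TPM, and the counting is not stated to use strand.

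Lect2 (ENSMUSG00000021539, chr13:56542464-56548502, minus strand) gave the largest change of the 10 members in lactation. Its lowest, median and highest levels were 303, 394 and 451 TPM in nulliparous mice, 71.7, 129 and 155 TPM in lactation and 273, 347 and 426 TPM in involution. All 6 lactating mice lay below all 13 others. Lect2 fell from 386 ± 49.6 (SD, n = 7) to 121 ± 35.3 TPM (SD, n = 6), a 3.19-fold lower level and a log2 change of -1.71 (SE 0.161, limma adjusted p = 4.53e-06). In involution it rose again to 351 ± 56.1 TPM (SD, n = 6), by 1.57 (SE 0.167, limma adjusted p = 5.88e-06), and its difference from nulliparous mice was then -0.14 (95% interval -0.48 to 0.19). Within the ranges of animal numbers the difference in lactation was -1.91 under 200 and -1.47 at 200 and above.

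Glul (ENSMUSG00000026473, chr1:153899944-153909723, plus strand), the classical marker of the cells next to the central vein, had a lowest, median and highest level of 237, 298 and 424 TPM in nulliparous mice, of 213.03, 253 and 301 TPM in lactation and of 264, 294 and 312 TPM in involution. The groups overlapped. Its difference in lactation was -0.28 (95% interval -0.52 to -0.05), with an unadjusted p of 0.0201 and an adjusted p of 0.126 by limma, and an exact permutation test of TPM over the 13 mice gave p = 0.0641. With animal number range as a covariate the adjusted p was 0.0347, at a difference of -0.26.

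**Figure D2:**
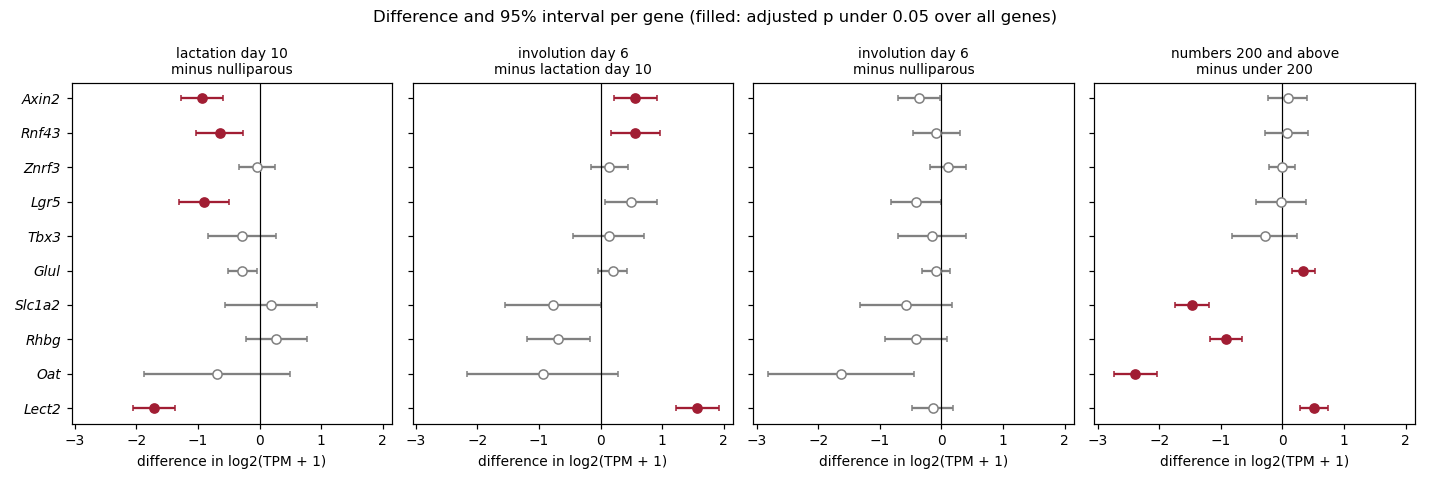
Differences in log2(TPM + 1) (horizontal axis) with 95% intervals for each gene in 4 comparisons; filled red points passed an adjusted p under 0.05 over all genes. Axin2, Rnf43, Lgr5 and Lect2 lie below 0 in the comparison of lactation with nulliparous mice, Lect2, Axin2 and Rnf43 lie above 0 in involution, and the fourth panel shows the differences between animal number ranges, from -2.39 for Oat to 0.51 for Lect2.

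The transporters and Oat, which handle glutamate, ammonium and ornithine, followed the animal number more than the stage. Among the nulliparous and lactating mice, with stage in the fit, 5 of the 10 members differed between the 2 ranges of animal numbers, against 25.6% of all genes. Oat, Slc1a2 and Rhbg were lower at 200 and above, a direction called in 9.14% of all genes, and Lect2 and Glul were higher, a direction called in 16.4%. Oat and Slc1a2 also passed a log2 change of at least 1, against 1.95% of all genes. None of these 5 genes overlapped between the ranges within nulliparous mice or within lactating mice, which held for 5.09% of all genes as lower and for 8.17% as higher at 200 and above.

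Oat (ENSMUSG00000030934, chr7:132557478-132576398, minus strand) had 1105, 1155 and 1469 TPM in the 3 nulliparous mice numbered under 200 and from 215 to 357 TPM in the 4 numbered 200 and above. In lactation the 3 lower-numbered mice had 669, 852 and 1137 TPM and the 3 others 118, 132.57 and 136 TPM. No lower-numbered mouse overlapped with a higher-numbered mouse of its stage. The involution mice, all of the higher range, had 130 to 205 TPM. The difference between ranges was -2.39 (SE 0.161, limma adjusted p = 4.69e-07) and was larger in size than any difference between stages, of which the largest was -1.63. Within the higher range Oat fell in lactation by 1.17 (SE 0.189, limma adjusted p = 0.00401), from 295 ± 59.3 (SD, n = 4) to 129 ± 9.58 TPM (SD, n = 3). Within the lower range its difference was -0.51 (limma adjusted p = 0.135), and over all mice it was -0.69 (95% interval -1.88 to 0.50). With animal number range as a covariate Oat was called as lower in lactation, at -0.86 (SE 0.153, limma adjusted p = 8.90e-04). The annotation places Oat inside the extent of an Fgfr2 entry on the same strand, which had a mean of 12.9 TPM.

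Slc1a2 (ENSMUSG00000005089, chr2:102658659-102790784, plus strand) had 41.9, 44.4 and 44.96 TPM in the nulliparous mice numbered under 200 and from 17.4 to 22.9 TPM in the 4 others. In lactation it had 45.8, 64.4 and 69.7 TPM in the lower-numbered mice and 15.4, 15.9 and 17.5 TPM in the others, and in involution 13.9 to 21.98 TPM. In both stages the lower-numbered mice lay above the others without overlap. The difference between ranges was -1.46 (SE 0.128, limma adjusted p = 4.37e-06). In the lower range the lactating mice lay above the nulliparous mice without overlap, by 0.42 (limma adjusted p = 0.0798), and in the higher range the difference was -0.21 (limma adjusted p = 0.386). The effect of lactation differed between the ranges by -0.64 (unadjusted p = 0.00598, limma adjusted p = 0.221).

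Rhbg (ENSMUSG00000104445, chr3:88242874-88254709, minus strand) had 6.30, 8.75 and 10.4 TPM in the nulliparous mice numbered under 200 and from 3.32 to 4.99 TPM in the 4 others. In lactation it had 8.91, 9.41 and 9.78 TPM in the lower-numbered mice and 3.52, 5.35 and 5.39 TPM in the others, and in involution 3.18 to 4.21 TPM. The 2 ranges were again apart in both stages, by -0.92 (SE 0.122, limma adjusted p = 1.63e-04). Gm38392 overlaps Rhbg on the same strand, at a mean of 1.30 TPM.

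Lect2 and Glul went the other way, higher at 200 and above. Lect2 was higher by 0.51 (SE 0.104, limma adjusted p = 0.00316), with 421 ± 23.7 (SD, n = 4) against 341 ± 32.8 TPM (SD, n = 3) in nulliparous mice and 151 ± 3.59 against 91.0 ± 19.8 TPM (SD, n = 3 each) in lactation. Glul was higher by 0.34 (SE 0.0870, limma adjusted p = 0.0123), with 349 ± 61.8 (SD, n = 4) against 266 ± 24.9 TPM (SD, n = 3) in nulliparous mice. Axin2, Rnf43, Znrf3, Lgr5 and Tbx3, the members that act in signaling or transcription, did not pass the test between ranges, with unadjusted p from 0.263 to 0.940.

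**Figure D3:**
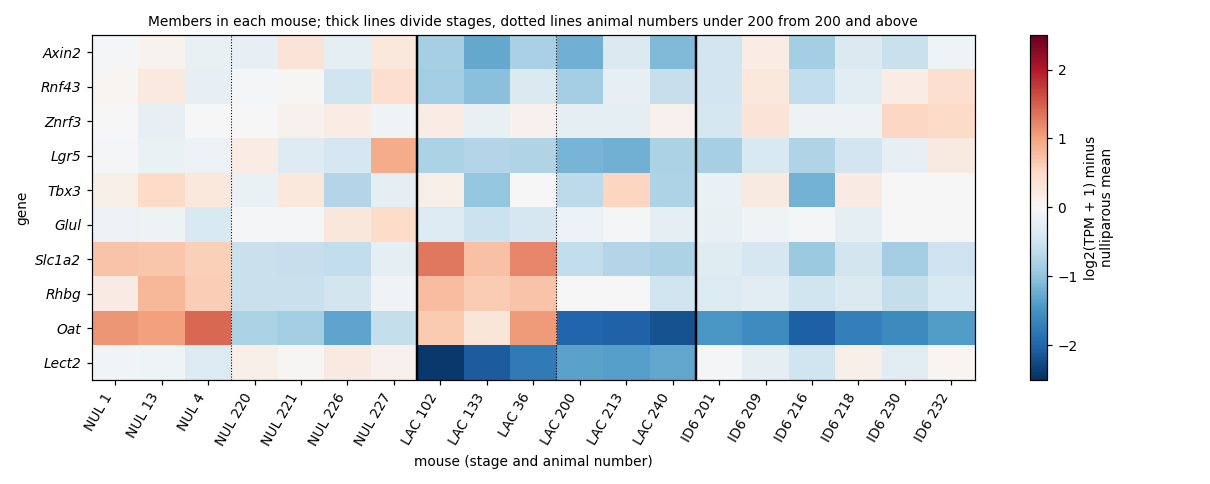
Each gene (rows) in each of the 19 mice (columns, by stage and animal number), colored by its log2(TPM + 1) minus the mean of the nulliparous mice, from -2.5 (blue) to 2.5 (red); solid lines divide the stages and dotted lines the animal number ranges. Lect2 is blue across all 6 lactating mice, and Slc1a2 and Oat change from red to blue at each dotted line, while Rhbg is near 0 in 2 of the 3 higher-numbered lactating mice.

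With an effect for each range, the comparison of lactation with nulliparous mice called Lect2 and Axin2 under 200, where 9.07% of all genes passed, and Lect2, Oat, Lgr5 and Axin2 at 200 and above, where 7.11% passed. The test of whether the effect of lactation differed between the ranges called 0 of the 10 members by limma and 0.111% of all genes. At an unadjusted p under 0.05 it found 3 members, Slc1a2, Oat and Lect2, against 13.2% of all genes.

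From lactation to involution, 3 of the 10 members rose, Lect2, Axin2 and Rnf43, and 0 fell, against 22.8% of all genes called and 18.1% called as higher. The share of the members was thus close to that of all genes. Only Lect2 also had a log2 change of at least 1, against 1.93% of all genes, and only Lect2 did not overlap between the 2 groups, as for 9.3% of all genes. The comparison shares its lactating mice with the comparison above, so the 2 sets of values are not independent. Within the mice numbered 200 and above, 1 member passed, Lect2 (1.20, SE 0.114, limma adjusted p = 3.14e-05), against 14.1% of all genes, while the difference was 0.53 for Axin2 (adjusted p = 0.155) and 0.47 for Rnf43 (adjusted p = 0.241). Axin2 and Rnf43 were not called after median-ratio scaling, where their differences were 0.45 (adjusted p = 0.0610) and 0.42 (adjusted p = 0.0997). The median over all genes was 0.10 in this comparison and -0.01 after that scaling. When any 1 of LAC_133, ID6_209 and ID6_232 was left out, Lect2 was the 1 member that passed. Rhbg had a difference of -0.69 (adjusted p = 0.0513) over all mice and of -0.25 (adjusted p = 0.258) within the higher numbers.

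Between involution and nulliparous mice limma called 0 of the 10 members, against 4.36% of all genes. At an unadjusted p under 0.05 it found 3 of them, Axin2 (-0.36), Lgr5 (-0.41) and Oat (-1.63), each lower in involution, against 25.1% of all genes at that p, and the exact permutation test found Oat alone (p = 0.0210). Within the mice numbered 200 and above Oat was lower by 0.74 (SE 0.140, limma adjusted p = 0.0278), the 1 member called there, against 0.797% of all genes. The 6 involution mice lay below all 7 nulliparous mice for Oat and for no other member, as was so for 0.542% of all genes. Axin2 had 3.53 ± 1.18 TPM (SD, n = 6) in involution and 4.73 ± 0.902 TPM (SD, n = 7) in nulliparous mice, and Lgr5 1.73 ± 0.771 and 2.68 ± 1.38 TPM.

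The levels of the members spanned a wide range. Over the 19 mice mean TPM was 474 for Oat, 291 for Lect2, 288 for Glul and 28.7 for Slc1a2, and then 8.51 for Rnf43, 6.76 for Tbx3, 5.57 for Rhbg, 3.50 for Axin2, 1.82 for Lgr5 and 1.598 for Znrf3. Metabolic and secreted products were thus at higher TPM than the regulators of the pathway, with Rhbg as the exception.

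Beyond stage and animal number range, some members varied together from mouse to mouse. After the mean of each stage and range was removed, 3 of the 45 pairs of members correlated over the 19 mice at an adjusted permutation p under 0.05. Axin2 and Tbx3 had a Pearson r of 0.831 (permutation p = 5.50e-04, adjusted p = 0.0247) and a Spearman rho of 0.825 (permutation p = 6.30e-04, adjusted p = 0.0187). Without the 2 mice farthest in Axin2 their r was 0.804, and it was 0.822 in the 13 mice numbered 200 and above and 0.921 in the 6 others. Axin2 and Rnf43 had an r of 0.761 (permutation p = 0.00161, adjusted p = 0.0360) and a rho of 0.789 (permutation p = 8.30e-04, adjusted p = 0.0187), with an r of 0.739 without the 2 farthest mice and of 0.761 and 0.790 within the ranges.

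Slc1a2 and Rhbg made up the third of these pairs, at r = 0.493 (permutation p = 0.00240, adjusted p = 0.0360) and rho = 0.606 (permutation p = 0.00144, adjusted p = 0.0216). Their r was 0.532 without the 2 mice farthest in Slc1a2, 0.688 in the 13 higher-numbered mice and 0.122 in the 6 others, so it was weak in the lower range. Over the 45 pairs r ran from -0.34 to 0.83 with a median of 0.25. Some pairs had a higher r than Slc1a2 and Rhbg without passing. Among them were Lgr5 with Rnf43 (0.667) and Tbx3 with Rnf43 (0.646), each at an adjusted permutation p of 0.0821. No r over pairs of all genes is given here for comparison. When the stage means alone were removed, 11 pairs passed, among them Slc1a2 with Oat (r = 0.971) and Oat with Lect2 (r = -0.73), values that include the difference between the ranges. Within the 6 lower-numbered mice these r were 0.614 and 0.035, and within the 13 others 0.937 and -0.55.

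**Figure D4:**
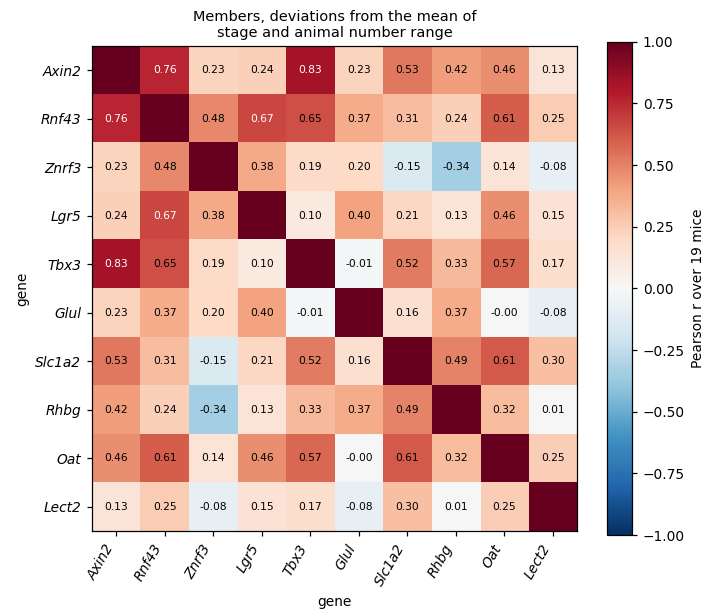
Pearson r over the 19 mice between every pair of members, computed on log2(TPM + 1) after the mean of each stage and animal number range was removed (color and printed value, from -1 to 1). The pairs of Axin2 with Tbx3 (0.83) and with Rnf43 (0.76) are highest, and Znrf3 with Rhbg (-0.34) is lowest.

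The genes whose deviations were most like those of Glul and Axin2 were outside the pathway lists. Of 11596 genes with a mean of 1 TPM or more, those with the highest r with Glul over the 19 mice were Maoa (0.835), Nup205 (0.827), Gem (0.822), Wars (0.819) and Acsl4 (0.810). For Axin2 they were Stim2 (0.894), Vps26a (0.890), Ablim3 (0.885), Tmx1 (0.871) and Upf2 (0.844). These values are the highest of many and are a description.

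Upstream of the members, 3 of the 7 tested genes of the ligand list fell in lactation and 0 rose, while 3 of its 10 genes were under the minimum level. Of all genes 6.49% were called as lower and 2.72% as higher in lactation, and 18.1% as higher and 4.73% as lower from lactation to involution. Wls, which carries Wnt proteins out of the cell, had 2.61 ± 0.507 TPM (SD, n = 7) in nulliparous mice and 1.64 ± 0.252 TPM (SD, n = 6) in lactation (-0.45, limma adjusted p = 0.00553). Wnt2 had 1.96 ± 0.245 and 1.38 ± 0.149 TPM (-0.31, limma adjusted p = 0.0134), and Rspo3, the R-spondin of the central vein, 2.03 ± 0.341 and 1.47 ± 0.173 TPM (-0.29, limma adjusted p = 0.0406). Wls and Wnt2 rose in involution, by 0.63 (limma adjusted p = 1.44e-04) and 0.45 (limma adjusted p = 4.80e-04), whereas the difference of Rspo3 was 0.11 (adjusted p = 0.408). Within the higher numbers Wls and Wnt2 also rose, where 14.1% of all genes were called. Rspo3 also differed between the animal number ranges, by -0.21 (adjusted p = 0.0266), and its call in lactation was lost with median-ratio scaling. By range of animal numbers, limma called 1 of the 7 in lactation under 200, Rspo3 (9.07% of all genes), and 0 of the 7 at 200 and above (7.11%). At 200 and above 3 had an unadjusted p under 0.05, against 21.4% of all genes, and Wls had a difference of -0.50 (limma adjusted p = 0.0585). In the fit of the mice numbered 200 and above alone, 1 of the 7 was called in lactation, Wls (limma adjusted p = 0.0245). With quantile normalization Wls alone was lower in this list, and 1 gene, Wnt9b, was higher. Shares of all genes with that normalization are not given here.

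Of the 10 tested receptors and co-receptors, 1 fell in lactation, Fzd8, from 7.74 ± 1.38 (SD, n = 7) to 4.45 ± 1.13 TPM (SD, n = 6) (-0.69, limma adjusted p = 0.00992), and it rose by 0.96 in involution (limma adjusted p = 3.87e-04). The 1 of 10 in lactation was close to the 9.21% of all genes called. Of the 17 genes for β-catenin, the degradation complex and TCF factors, 2 rose in lactation, Tcf7l1 (0.49) and Dvl1 (0.36), and 1 fell, Ctnnb1 (-0.24), which encodes β-catenin. Ctnnb1 had 108 ± 4.45 TPM (SD, n = 7) in nulliparous mice, 91.9 ± 11.1 TPM (SD, n = 6) in lactation and 125 ± 5.96 TPM (SD, n = 6) in involution, but its fall was not called with median-ratio scaling. In the fit of the higher-numbered mice alone, 0 of the 17 were called in lactation, against 7.13% of all genes. With an effect for each range, Dvl1 and Ctnnb1 were called in the lower range (limma adjusted p = 0.0391 and 0.0346). In the higher range Dvl1 and Ctnnb1 were not called (limma adjusted p = 0.296 and 0.254). Tcf7l1 was called in neither the lower nor the higher range (limma adjusted p = 0.0604 and 0.402). Of the 4 tested secreted inhibitors limma called 0 in lactation, with 1 at an unadjusted p under 0.05, against 23.1% of all genes at that p.

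Other targets of the pathway outside the 10 members went in both directions in lactation. Of the 8 tested other canonical targets, 1 was called in lactation, Sp5, at 0.821 ± 0.188 against 0.450 ± 0.130 TPM (SD, n = 7 and 6), named here after its value was seen because it lies under 1 TPM. The median difference of this list was -0.04, beside -0.03 over all genes, and with median-ratio scaling Ccnd1 was called as higher. In involution Ccnd1, which drives the cell cycle, was lower by 1.22 than in lactation (limma adjusted p = 0.0103).

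**Figure D5:**
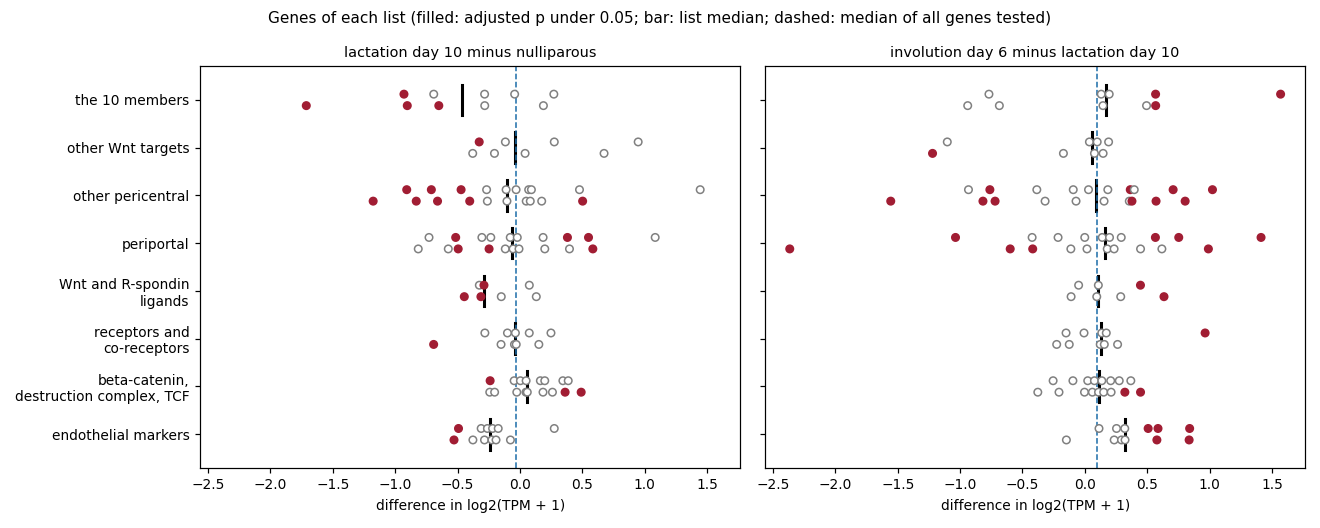
Differences in log2(TPM + 1) (horizontal axis) of the tested genes of 8 lists, between lactation and nulliparous mice (left) and between involution and lactation (right); filled red points passed an adjusted p under 0.05, black bars are list medians and the dashed line is the median over all genes. The median of the 10 members is -0.47 on the left and 0.17 on the right, and the other lists have medians between -0.29 and 0.06 on the left.

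Of 20 other pericentral metabolic genes, 7 fell in lactation and 1 rose, Gstm1 (0.50, named after its value was seen), against 6.49% and 2.72% of all genes. Cyp2e1, a cytochrome P450 of the pericentral zone, fell from 3958 ± 1141 (SD, n = 7) to 1865 ± 876 TPM (SD, n = 6) (-1.18, limma adjusted p = 0.00876). Slc13a3, a transporter of dicarboxylates, fell by 0.91, and Akr1c6, an aldo-keto reductase, by 0.71. The median of the list was -0.11. In involution 6 rose and 4 fell, against 18.1% and 4.73% of all genes, with Slc13a3 at 1.02 and Cyp2e1 at 0.80, and Cyp7a1 at -1.56 and Cyp1a2 at -0.82. Within the higher numbers 6 rose and 1 fell, against 14.1% of all genes called in either direction, with Cyp2e1 at 1.45. There Slc13a3 (0.67, limma adjusted p = 0.0662), Cyp7a1 (-1.02, limma adjusted p = 0.264) and Cyp1a2 (-0.46, limma adjusted p = 0.138) were not called. With median-ratio scaling 2 rose and 5 fell, and Cyp2e1 was not called there or with quantile normalization. The shares of all genes given here are without scaling. Shares with these scalings are not given, also for the periportal genes below. Between the ranges of animal numbers 11 of these 20 genes were lower and 2 higher at 200 and above, against 9.14% and 16.4% of all genes, and Cyp2e1 differed by -0.93. Of 20 periportal genes, 3 rose and 3 fell in lactation, and 4 rose and 4 fell in involution (2 and 6 with median-ratio scaling, 6 and 4 within the higher numbers). Among all genes 2.72% rose and 6.49% fell in lactation, and 18.1% rose and 4.73% fell in involution. The 4 of 20 that rose in involution were thus close to the share of all genes.

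Of the 20 genes of glutamine, ammonia and proline metabolism, a list that contains Glul, Oat, Slc1a2 and Rhbg, 1 was called in lactation, Prodh2, which fell by 0.42 (limma adjusted p = 4.01e-04) and rose by 0.46 in involution. Of all genes 9.21% were called in lactation. In the fit of the mice numbered 200 and above alone, 3 of the 20 fell in lactation and 0 rose, against 7.13% of all genes called. With animal number range as a covariate, Oat and Glul were called as lower in lactation. Between the ranges 4 were higher and 8 lower at 200 and above, against 16.4% and 9.14% of all genes. Apart from Oat and Slc1a2, the largest called difference was that of Glud1, glutamate dehydrogenase, at 0.95 (limma adjusted p = 5.94e-04), opposite to Oat.

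Markers of other cells moved with the stages. For comparison, 6.49% of all genes fell and 2.72% rose in lactation, and 18.1% rose and 4.73% fell in involution. Within the higher numbers 14.1% of all genes were called in involution. Of 12 endothelial markers, 2 fell in lactation, Clec4g (-0.53) and Oit3 (-0.49), 5 rose in involution (6 within the higher numbers) and 0 fell, and none was at 0. Their summed level was 160 to 211 TPM in nulliparous mice, 106 to 164 TPM in lactation and 217 to 237 TPM in involution. Of 9 Kupffer cell and leukocyte markers, 6 fell in lactation and all 9 rose in involution (4 and 8 with median-ratio scaling or quantile normalization, and 7 of 9 in involution within the higher numbers), at sums of 150 to 289, 97.9 to 204 and 333 to 473 TPM. Shares of all genes with these scalings are not given here. The summed level of the hepatocyte markers was higher in lactation, with Alb as the 1 gene called of 6. That sum is mostly Alb, at a mean of 71729 TPM over the 19 mice, against 9228 TPM for Apoa1, the next highest. The others, named after their values were seen, went both ways without a call. Ttr (-0.53), Serpina1c (-0.23) and Apob (-0.11) were lower, and Apoa1 (0.18) and Hnf4a (0.21) higher. The part of these shifts in the members' differences was not tested.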

How the data were processed

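Poly(A)-enriched liver RNA of 19 mice was sequenced by the authors with paired-end reads, aligned to GRCm38 and quantified with RSEM 1.3.1, and 1 TPM value per gene entry and mouse was deposited by them, for 51826 entries. Reads that match several genes are shared out between them by RSEM, and TPM keep neither depth nor total RNA. The methods do not state whether the libraries mark strand. The read counts on which the authors ran DESeq2 were not used here.

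The deposited TPM were transformed to log2(TPM + 1), and genes whose mean reached 0.1 TPM, 16230 in all, entered a limma-trend fit (limma 3.58.1, R 4.3.3), two-sided, with 1 mean per stage, all 19 mice and Benjamini-Hochberg adjustment over all genes. The comparison of animal number ranges and its interaction with lactation used the 13 nulliparous and lactating mice and 16179 genes. Single members were also compared by exact permutation of TPM, and pairs of members by 100000 permutations within stage and range (Python 3.11.15, numpy 2.4.6, scipy 1.17.1). The fitting was tested on simulated data. The p-values set differences against the spread between these mice and treat each mouse as independent. The labels do not say that the mice were separate litters or housings, so this could not be checked.

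The members, the gene lists and the split by animal number were chosen with earlier results of these data known. All members are named, and from each other list at most the 4 called genes with the largest change and a mean of 1 TPM or more, with any exception stated. Where a symbol had 2 entries (Itgam), the higher was used. Positions are from GENCODE M21 on GRCm38, matched by symbol, and promoter windows from RefSeq on GRCm38.p6.

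Results were recomputed with each mouse left out, within mice numbered 200 and above, with animal number range as a covariate, in fits of 2 groups at a time, with robust moderation, after quantile normalization or median-ratio scaling, with pseudocounts of 0.5 and 0.1, without a filter or with one at 1 TPM, and with a log2 change of at least 1 required. Using only mice numbered under 200, and leaving out mice in the comparison of ranges, were added after the data were seen.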

Additional observations from a re-analysis of the deposited data

Results flagged for a closer look

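In the 30 groups formed by 10 members and 3 stages, 1 held a mouse far from the others. Lgr5 was 5.65 TPM in NUL_227 and at most 2.99 TPM in the other 6 nulliparous mice, a gap of 0.658 of the whole range. Chance alone gives about 1 such group in 20. Without this mouse the difference of Lgr5 between lactation and nulliparous mice was -0.75, the smallest in size of the 19 values with a mouse left out, and it still passed the test. Glul in the same mouse was 424 TPM and Rnf43 13.3 TPM, the highest nulliparous values of these genes.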

How the results depend on the processing

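At an adjusted p under 0.05, the falls of Lect2, Axin2 and Lgr5 in lactation passed in all 30 alternative fits, and the rise of Lect2 in involution in all 29. Among these, mice numbered under 200 were fitted alone; when fitted with the others, with an effect for each range, Lgr5 did not pass there (adjusted p = 0.165). The fall of Rnf43 did not pass in 10 of 30, the rise of Axin2 in 7 of 29 and that of Rnf43 in 12 of 29. In lactation the number of members called was 1 with a log2 change of at least 1 (0.746% of all genes) and 3 to 5 with a mouse left out. From lactation to involution it was 5 with a pseudocount of 0.1 (Lgr5 higher and Rhbg lower were added) and 6 by unadjusted exact permutation tests. Of all genes 35.2% had an unadjusted limma p under 0.05 in this comparison, and 22.8% an adjusted one. The number of members was 1 with range as a covariate and 1 within numbers of 200 and above (14.1% of all genes). It was 1 with a log2 change of at least 1 (1.93% of all genes), and 1 to 4 with a mouse left out. Shares over all genes for the pseudocount, the covariate and the mice left out are not given here. Against nulliparous mice the involution count was 1 within numbers of 200 and above (0.797% of all genes) and 1 by exact permutation. An unadjusted limma p under 0.05 was reached there by 25.1% of all genes. With stage means alone removed, 11 pairs of members correlated. The causes were not tested. All reversals concerned values that did not pass. Lactation against nulliparous gave 0.0083 for Znrf3 with quantile normalization and 0.11 under 200, and -0.21 for Slc1a2 at 200 and above, with -0.0392 to 0.383 for Slc1a2 when a mouse was left out. Involution against lactation gave -0.0088 for Tbx3 with median-ratio scaling and -0.0036 to 0.34 with a mouse left out, 0.26 for Oat with range as a covariate and 0.43 at 200 and above, and 0.13 for Slc1a2 at 200 and above. Involution against nulliparous gave 0.0461 for Slc1a2 with the covariate, 0.0722 for Tbx3 and 0.0007 for Rhbg at 200 and above, and with a mouse left out -0.273 to 0.0571 for Tbx3 and -0.182 to 0.0254 for Rnf43. Among all genes, the share of calls that were higher was 29.5% in lactation, 79.3% from lactation to involution and 79.1% for involution against nulliparous, and 50.3%, 49.0% and 43.5% with median-ratio scaling. Between the ranges it was 64.3% and 49.6%. The 5 calls between the ranges held with each mouse left out. No paired analysis was possible because the mice share no replicate numbers. Depth was not known, so what low values such as those of Lgr5 and Znrf3 could show is limited by the spread between mice.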

Other observations

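Marker lists outside the pathway gave the following counts by limma. For comparison, 2.72% of all genes rose and 6.49% fell in lactation, and 18.1% rose and 4.73% fell from lactation to involution. Between involution and nulliparous mice 4.36% of all genes were called. Within mice numbered 200 and above the shares called were 14.1% against lactation and 0.797% against nulliparous mice. Of 7 proliferation markers, 4 rose in lactation (Cdk1, Ccnb1, Mki67 and Ccna2) and 5 fell in involution. With an effect for each range, none of these 4 was called in lactation under 200 (limma adjusted p from 0.168 to 0.412). At 200 and above each of the 4 was called (limma adjusted p from 0.0166 to 0.0471). Of all genes 9.07% passed under 200 and 7.11% at 200 and above. Of 5 erythroid markers, 0 were called in lactation (0 also at an unadjusted p under 0.05) and all 5 were lower in involution than in either other stage (within mice numbered 200 and above 5 than in lactation and 4 than in nulliparous mice), with sums of 1144 to 2407 TPM in nulliparous mice, 1331 to 3336 TPM in lactation and 197 to 847 TPM in involution. Of 7 stellate cell markers, 3 fell in lactation (Col3a1, Reln and Dcn) and 3 rose in involution (2 within mice numbered 200 and above), of which Dcn alone was called with median-ratio scaling. Shares of all genes with that scaling are not given here. Of 6 tested cholangiocyte markers, Spp1 alone fell in lactation and rose in involution. Among 7 pancreas and adipose markers, Cela1 alone fell in lactation and rose in involution.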
